A study of Caenorhabditis elegans with 2 samples.

Results

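On the 5 autosomes, 646 ELT-1 peaks had their summit in the promoter window of a protein-coding gene, out of 1910 peaks in the authors' thresholded list and 1440 on the autosomes. The window began 1000 bp before a protein-coding transcript start and ended 200 bp after it, in the Ensembl annotation of the WBcel235 genome. The thresholded list was selected by IDR, the irreproducible discovery rate, a measure of how well peak ranks repeat. Ranks still differed between the replicates. Of the 646 promoter peaks, 591 (91.5%) were matched in the full lists of both replicates, with a Spearman correlation of 0.391. In the full list of replicate 2 alone were 45, in that of replicate 1 alone 9, and in neither 1. The other autosomal IDR peaks were 461 distal intergenic, 284 intronic and 49 exonic summits outside every promoter window. ChIP-seq of eGFP-tagged ELT-1 was done on whole Caenorhabditis elegans L3 larvae, in 2 biological replicates. Both replicates came from strain OP354, which has the genotype unc-119(tm4063) III; wgIs354, where wgIs354 is an inserted elt-1 transgene. There was 1 group, so nothing here compares genotypes or treatments. The peaks come from all tissues of the animal together, so binding in few cells and weak binding in many cells cannot be told apart.

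GATA factors are zinc finger proteins that bind DNA at the sequence WGATAR, where W is A or T and R is A or G. ELT-1 is the GATA factor that specifies epidermal fate in the worm embryo and maintains the epidermis later. Worm promoters are compact, and neighbouring genes that point away from each other often share 1 short region between their starts.

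Peaks alone in the window of 1 gene carried GATA sites more often than peaks whose summit lay in the windows of several genes. Of the 646 summits, 462 lay in the window of 1 gene and 184 in the windows of 2 or more, 174 of them of 2 genes and 10 of 3 genes. A WGATAR site within 50 bp of the summit was found at 175 of the 462 1-gene summits, or 37.9% (95% exact Clopper-Pearson interval 33.4 to 42.5). It was found at 30 of the 184 shared summits, or 16.3% (11.3 to 22.5). The odds ratio was 3.13 (Fisher's exact test, 2-sided, adjusted exact p = 1.91e-07 over 13 planned contrasts). These tests treat peaks as independent, which neighbouring peaks are not. Of the shared summits, 157 (85.3%) lay upstream of starts on both strands, between genes that point away from each other.

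Strong 1-gene peaks with a site show where the motif sits relative to the summit. The peaks of pmt-2, sesn-1 and hir-1 were stronger than the last 3 shown and also had sites, but their runs are not printed. Each run below is the summit base with 50 bp on either side in ce11 (WBcel235), written 5′ to 3′ on the strand of the nearest gene, with WGATAR sites on either strand in capitals.
elt-1, chrIV:9615674-9615774, + strand: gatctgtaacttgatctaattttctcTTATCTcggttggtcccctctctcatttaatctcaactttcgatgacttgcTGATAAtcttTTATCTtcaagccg
elt-1, chrIV:9614226-9614326, + strand: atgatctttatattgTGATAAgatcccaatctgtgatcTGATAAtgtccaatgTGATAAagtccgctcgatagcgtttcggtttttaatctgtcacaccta
mvk-1, chrIII:6132284-6132384, - strand: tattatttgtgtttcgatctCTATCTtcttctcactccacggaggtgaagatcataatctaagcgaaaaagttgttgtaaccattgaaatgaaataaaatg
T01B7.5, chrII:8717756-8717856, + strand: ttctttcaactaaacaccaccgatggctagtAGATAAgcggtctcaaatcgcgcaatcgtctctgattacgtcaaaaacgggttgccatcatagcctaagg
txdc-12.1, chrII:12239584-12239684, + strand: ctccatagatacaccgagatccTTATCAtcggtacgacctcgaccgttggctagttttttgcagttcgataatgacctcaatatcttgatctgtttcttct

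Among the strongest shared peaks, sites were absent from some windows and present in others. The first run below lies between an unnamed gene and rpl-20, which encodes a large subunit ribosomal protein, and the next between tasp-1 and its neighbour. The last 2 runs are shared windows that hold a site, and the C02E7.7 pair was picked for display after its values were seen.
Y17G9B.5 and rpl-20, chrIV:4750008-4750108, + strand: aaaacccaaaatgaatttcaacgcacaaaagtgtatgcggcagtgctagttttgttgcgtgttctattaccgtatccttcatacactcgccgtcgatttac
tasp-1 and K01G5.10, chrIII:10759199-10759299, + strand: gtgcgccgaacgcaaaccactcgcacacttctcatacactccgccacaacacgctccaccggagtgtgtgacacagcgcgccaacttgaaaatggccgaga
ZK546.19 and cblc-1, chrII:4941570-4941670, + strand: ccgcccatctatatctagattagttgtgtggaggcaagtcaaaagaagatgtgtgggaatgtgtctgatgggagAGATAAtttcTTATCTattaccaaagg
C02E7.7 and C02E7.6, chrV:4918788-4918888, - strand: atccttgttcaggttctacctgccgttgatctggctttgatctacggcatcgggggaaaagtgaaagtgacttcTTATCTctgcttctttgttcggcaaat

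elt-1 itself had the strongest promoter peaks. Its main peak, chrIV:9615363-9615965, had a pooled signal of 1858, against 708.6 in the list of replicate 1 and 1162 in that of replicate 2, and its summit lay in an intron 266 bp upstream of a transcript start of the gene. A peak 719 bp upstream of a start had a signal of 374.7, with 138.8 in replicate 1 and 237.8 in replicate 2. A further elt-1 peak, 281 bp upstream of another start, had a signal of 102.8 and no WGATAR site at its summit. Signals are the authors' own values and serve only to rank peaks within 1 list. The strain carries extra elt-1 sequence in its transgene, and its part in these signals was not tested. Of 17242 autosomal protein-coding genes, 815 (4.73%) had a promoter peak, of which 792 had 1, 21 had 2 and 2 had 3. The other gene with 3 was F14E5.8, with signals of 87.65, 58.6 and 28.31.

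The other strong 1-gene peaks lay at genes of varied function. The peak of pmt-2, a phosphoethanolamine methyltransferase that makes phosphatidylcholine, had a signal of 273, with 111 in replicate 1 and 161.9 in replicate 2. It held 3 sites, and its summit lay in an exon, 33 bp downstream of a start. pmt-1, which acts in the same route, had a peak of 109.3, with 45.55 in replicate 1 and 60.44 in replicate 2, and 1 AGATAA site. mvk-1, which encodes mevalonate kinase, had 198.4, with 92.34 in replicate 1 and 114.8 in replicate 2. phdh-1, which encodes a phosphoglycerate dehydrogenase of serine synthesis, had 169.1 but no site. Of the listed acyl-CoA synthetase, desaturase and elongase genes, which act in lipid metabolism, 1 of 35 (2.86%) had a peak, against 4.73% of all genes. Sestrin gene sesn-1 had 232.6 with sites of 2 forms, and hir-1 had 217.3 with an AGATAA site. Both replicates placed every one of these peaks among their 1910 strongest regions.

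rpl-3, which encodes a large subunit ribosomal protein, had one of the 10 strongest 1-gene peaks, with 227.5 in the pooled list, 95.18 in replicate 1 and 134.9 in replicate 2, and no WGATAR within 50 bp. Its run is shown with phdh-1, fzr-1 and the shared window of rps-1 and ifet-1, also without a WGATAR. In the last 2 the capitals mark GAGAGA on either strand, and these 2 were picked after their values were seen.
rpl-3, chrIII:3867534-3867634, + strand: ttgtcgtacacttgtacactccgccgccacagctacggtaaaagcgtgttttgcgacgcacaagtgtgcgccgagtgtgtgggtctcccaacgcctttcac
phdh-1, chrII:13638718-13638818, - strand: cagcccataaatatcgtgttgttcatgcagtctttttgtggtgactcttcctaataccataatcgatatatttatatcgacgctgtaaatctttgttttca
fzr-1, chrII:9645089-9645189, - strand: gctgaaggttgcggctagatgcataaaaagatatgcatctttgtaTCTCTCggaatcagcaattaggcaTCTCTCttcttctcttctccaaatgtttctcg
rps-1 and ifet-1, chrIII:4475603-4475703, + strand: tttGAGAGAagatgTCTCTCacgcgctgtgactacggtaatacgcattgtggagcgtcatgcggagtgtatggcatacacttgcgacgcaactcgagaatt

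GATA sites were more frequent at promoter summits than at the promoter regions that missed the threshold, and less frequent than at distal summits. The promoter peaks had a site at 205 of 646 summits, or 31.7% (28.2 to 35.5). Distal intergenic peaks had one at 210 of 461, or 45.6% (40.9 to 50.2), an odds ratio of 0.556 (Fisher's exact test, adjusted exact p = 1.02e-05). Intronic peaks had one at 40.5% of 284, an odds ratio of 0.683 (adjusted exact p = 0.0235). Without replicate 2 the distal difference lost its call, with an odds ratio of 0.778 and adjusted exact p = 0.122, and without replicate 1 it was 0.712 with adjusted exact p = 0.0167. Leaving out either replicate also ended the intronic call, with odds ratios of 0.797 and 0.805. The remaining pooled regions in autosomal promoter windows, 7523 summits over 500 bp from any IDR summit, had a site at 1584, or 21.1%. These regions can be background. The odds ratio of promoter peaks to them was 1.74 (adjusted exact p = 1.05e-08). Over all positions in autosomal promoter windows, sampled every 50 bp, 20.8% had a site within 50 bp. Promoter peaks on X had a site at 71 of 179 summits, or 39.7%, and the autosomal share was not called different (odds ratio 0.707, adjusted exact p = 0.0915).

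**Figure D1:**
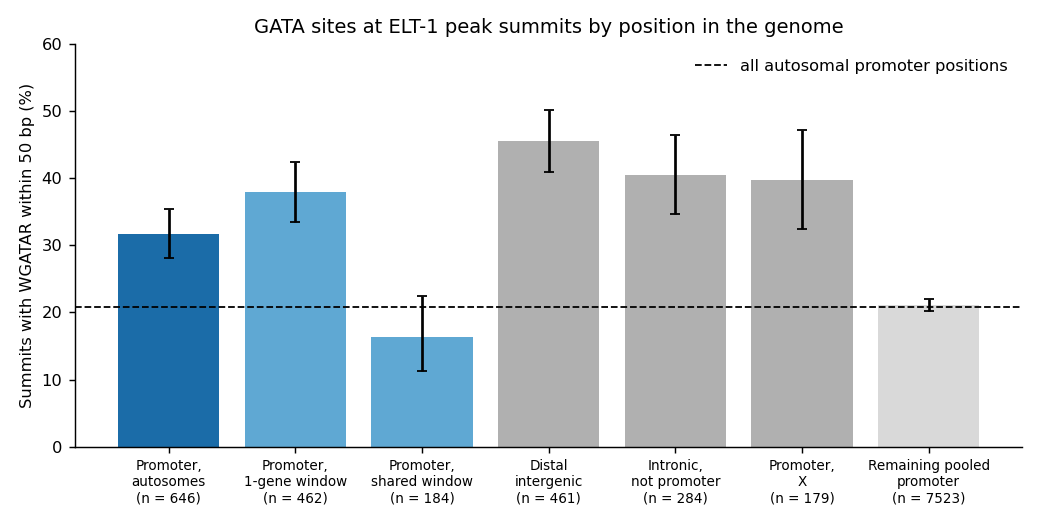
Share of peak summits with a WGATAR site within 50 bp (%), for autosomal promoter peaks, their 1-gene and shared groups, the other classes and the remaining pooled promoter regions. Bars are shares, lines are 95% Clopper-Pearson intervals, and the dashed line is the share over all autosomal promoter positions, 20.8%. The shared group, at 16.3%, is the lowest bar.

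Split by window, the surplus over the remaining regions was seen in the 1-gene group. These splits were added after the data were seen, and their p-values are adjusted over the 8 tests added together. The 1-gene peaks had a site at 37.9% of summits, against 1411 of 6478 or 21.8% of remaining 1-gene regions (odds ratio 2.19, Fisher's exact test, adjusted exact p = 3.67e-13). Shared peaks had a site at 16.3%, against 173 of 1045 or 16.6% of remaining shared regions (odds ratio 0.982, adjusted exact p = 1). That odds ratio was 1.91 with adjusted exact p = 0.115 against the next-strongest remaining regions alone, so a difference is not shown to be absent. Whether the surplus itself differs between the 1-gene and shared groups was not tested. Between 1-gene peaks and distal intergenic peaks the odds ratio was 0.729 (adjusted exact p = 0.052). This call depends on the family of tests: over all 10 added tests, including 2 added later, the adjusted exact p is 0.039. Base composition moved with these groups. The median GC content of the bases within 50 bp was 43.07% at 1-gene summits, 46.53% at shared summits, 41.58% at distal summits and 36.63% at the remaining regions, and its part in the site shares was not tested.

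Sites were concentrated at the summits. Within the promoter peaks, 161 had a site at the summit but not 300 bp upstream, and 95 the reverse (exact McNemar test, adjusted exact p = 4.44e-05). For the window 300 bp downstream the counts were 170 and 97 (adjusted exact p = 1.86e-05). The nearest site was a median of 16.5 bp from the summit in the 205 peaks that had one, and 133 of them (64.9%) had it within 25 bp. In 51-bp windows the share with a site was 19.4% at the promoter summits and 26.0% at distal summits, against 10.8% at the remaining regions.

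**Figure D2:**
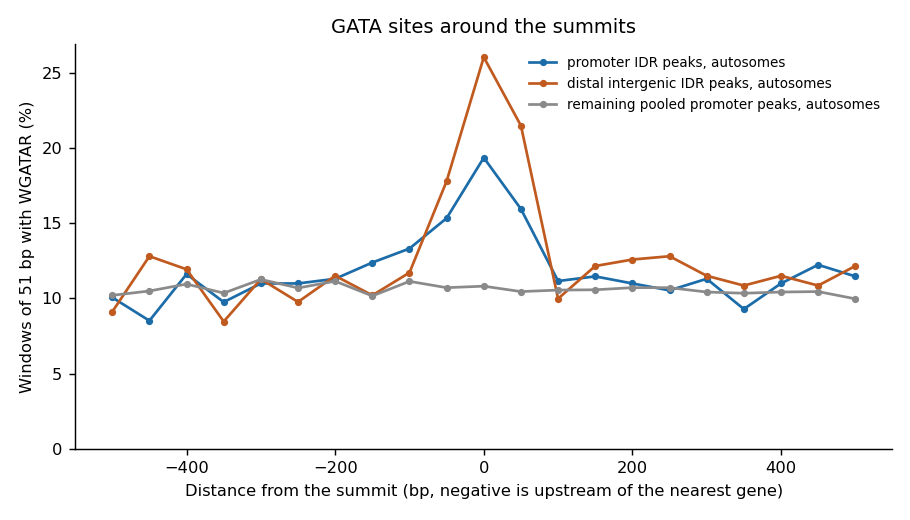
Share of 51-bp windows with a WGATAR site (%) by distance from the summit in bp, for promoter IDR peaks, distal intergenic IDR peaks and remaining pooled promoter regions on autosomes. The promoter line peaks at 19.4% at the summit, below the distal line at 26.0%, while the remaining regions stay flat, with 10.8% there.

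AGATAA was the form that set the promoter peaks apart from the remaining regions most in share. It was present at 17.2% of promoter summits, 26.9% of distal summits and 7.03% of remaining regions. AGATAG was at 8.05% of promoter summits and 3.80% of remaining regions. TGATAA, at 7.74% of promoter summits, was at 8.80% of remaining regions, and TGATAG was at 3.56% and 3.68%. These are descriptions with no test of single forms. By window, AGATAA was at 20.4% of 1-gene summits and 9.24% of shared summits. Of 129 1-gene peaks with exactly 1 site, 49 (38.0%, 29.6 to 47.0) had it on the strand of the gene and 80 on the other (exact binomial test, p = 0.00801). The remaining regions had 500 of 1196 (41.8%) on the gene's strand, and the difference was not called (odds ratio 0.853, adjusted exact p = 0.714).

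Promoter summits gathered just upstream of the start. The median distance to the nearest start was 208 bp upstream, and 251 of 646 (38.9%) lay 1 to 200 bp upstream, against 1964 of 7523 (26.1%) remaining regions (odds ratio 1.80, Fisher's exact test, adjusted exact p = 1.29e-11). At or downstream of the start lay 67 (10.4%), against 1766 (23.5%) of the remaining regions (odds ratio 0.377, adjusted exact p = 3.44e-16). These 2 tests were added after the histogram was seen. The planned test, within 200 bp on either side, gave 300 of 646 (46.4%) against 3262 of 7523 (43.4%) and was not called (adjusted exact p = 0.197). Against the next-strongest remaining regions, 712 promoter summits, the upstream odds ratio was 0.998 and the downstream one 0.770 (adjusted exact p = 0.26), so neither call held. Site shares by distance were not called different, with 90 of 300 (30%) within 200 bp and 115 of 346 (33.2%) farther away (odds ratio 0.861, adjusted exact p = 0.43). Summits in introns had a site at 41.2%, those in exons at 31.9% and intergenic ones at 29.4%.

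**Figure D3:**
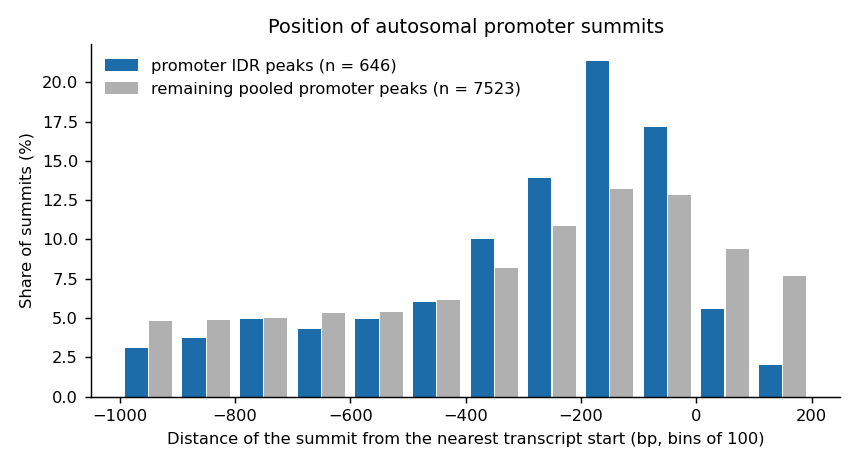
Share of summits (%) by distance from the nearest protein-coding transcript start, in bins of 100 bp, for promoter IDR peaks and remaining pooled promoter regions. The bin from 200 to 100 bp upstream holds 21.4% of the promoter peaks and 13.2% of the remaining regions, and the bin from 100 to 200 bp downstream holds 2.01% and 7.71%. Summits whose nearest start lies farther away than the window of that gene are outside the bins.

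Shared windows were over-represented among the promoter peaks relative to all remaining regions. They made up 184 of 646 peaks (28.5%), against 1045 of 7523 (13.9%) remaining regions (odds ratio 2.47, Fisher's exact test, adjusted exact p = 6.3e-19). The central part of each chromosome, from one to the other of the points that cut it into 3 equal lengths, held 318 (49.2%) against 3051 (40.6%) (odds ratio 1.42, adjusted exact p = 5.45e-05). Against the next-strongest regions these became 1.24 (adjusted exact p = 0.182) and 1.08 (adjusted exact p = 0.557), and both calls were lost. By chromosome, the promoter peaks numbered 122 on I, 135 on II, 130 on III, 105 on IV and 154 on V. The GATA share was lowest on III, at 20.8% (14.2 to 28.8), and highest on IV, at 39.1% (29.7 to 49.1), a description with no test.

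Stronger promoter peaks had sites more often, a description given without a test. The peaks were cut by signal into 4 groups of near equal number. In the strongest group, 44.4% (36.7 to 52.5) had a site, 34.6% in the next, 26.7% in the one after it and 21.1% (15.1 to 28.2) in the weakest. AGATAA was at 27.2% of the strongest group and 10.6% of the weakest. The signal ran from 27.71 to 1858 with a median of 39.72, close to the medians of the distal (41.6) and intronic (42.13) peaks. Each replicate's 1910 strongest regions were matched to the summits within 100 bp. Both replicates held 348 of 646 promoter peaks (53.9%), against 265 of 461 distal (57.5%, adjusted exact p = 0.289) and 159 of 284 intronic peaks (56.0%, adjusted exact p = 0.568), by Fisher's exact tests. Peaks in both had a site at 38.2%, those in replicate 2 alone at 28.7%, those in replicate 1 alone at 19.5% and the 26 in neither at 7.69%.

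**Figure D4:**
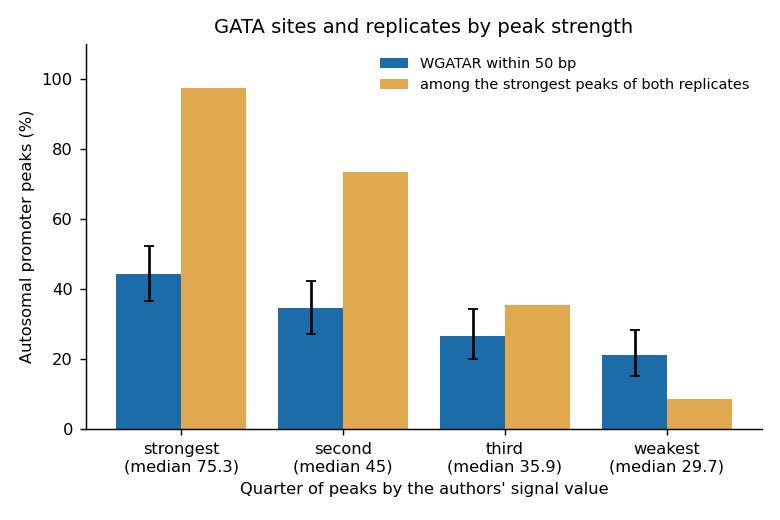
Share of promoter peaks (%) with a WGATAR site within 50 bp, with 95% Clopper-Pearson intervals, and share among the strongest regions of both replicates, in 4 groups by the authors' signal, drawn from strongest to weakest. The site share is 44.4% in the strongest group and 21.1% in the weakest, and the share in both replicates is 97.5% and 8.70%.

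Other promoter sequences were also unequal. GAGAGA was at 148 promoter summits (22.9%) against 10.5% of remaining regions (odds ratio 2.55, Fisher's exact test, adjusted exact p = 8.94e-17 over 22 motif tests). GCGTCTC was at 65 (10.1%) against 3.12% (odds ratio 3.47, adjusted exact p = 2.28e-13). Over all promoter positions they were at 5.94% and 1.01%. The groups differed in base composition. Median GC content within 50 bp was 44.55% at promoter summits, 41.58% at distal summits and 36.63% at the remaining regions. Its part in the motif shares was not tested. TATAAA, the core of the TATA box, was at 3.41% against 11.6% (odds ratio 0.270, adjusted exact p = 4.49e-12). For TATAAA, peaks taken from replicate 2 alone gave 0.413 (adjusted exact p = 3.53e-07) and from replicate 1 alone 0.648 (adjusted exact p = 0.0235). In such results without a replicate, the remaining regions still came from the pooled list of both replicates. TTTCAG, the end of an intron's acceptor site, was at 8.20% against 18.3% (odds ratio 0.400, adjusted exact p = 1.74e-11). TTGCGCAA was at 6 promoter summits, or 0.929%, against 0.199% (odds ratio 4.69, adjusted exact p = 0.0204). That call was lost without replicate 1 (2.03, adjusted exact p = 0.584) and without replicate 2 (3.03, adjusted exact p = 0.201). Of the 11 motifs searched on both strands, the other 6 did not pass, and none of the 11 passed against distal intergenic peaks. Among the 5 motifs with a call, 2 passed against distal peaks under an alternative: GCGTCTC with the 500-bp window (odds ratio 1.76, adjusted exact p = 0.0419) and GAGAGA without replicate 1 (odds ratio 0.670, adjusted exact p = 0.0232). The 6 were the E-box CACGTG, the cyclic AMP element TGACGTCA, the homeodomain word TGATTGAT, the E2F word GGCGGGAA, the forkhead word TGTTTAC and CTGATAAG, an extended GATA site that overlaps WGATAR. Against the next-strongest regions only TATAAA passed, and the odds ratios of GAGAGA and GCGTCTC were 0.955 and 0.909. GCGTCTC was at 54 of 441 promoter peaks without a WGATAR (12.2%) and 11 of 205 with one (5.37%) (odds ratio 2.46, adjusted exact p = 0.0287 over the 8 added tests). That call was lost without replicate 1 (1.78, adjusted exact p = 0.35) and without replicate 2, where the odds ratio was 2.49 (adjusted exact p = 0.087). At least 1 of WGATAR and these 2 words, GAGAGA and the 7-base one, was present at 334 peaks (51.7%), and 312 (48.3%) had none of the 3. Over all promoter positions WGATAR by itself was at 20.8%. The share with any of the 3 was not counted there or in the remaining regions, so 51.7% has no background beside it.

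clp-4, with a signal of 165.6, shows GCGTCTC in capitals at the edge of its window, and was picked after its values were seen.
clp-4, chrIII:1818428-1818528, - strand: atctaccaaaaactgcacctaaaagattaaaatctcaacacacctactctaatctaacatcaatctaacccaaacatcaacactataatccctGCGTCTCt

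Ribosomal protein genes had promoter peaks most often of the large families. Across all autosomal protein-coding genes, 815 of 17242 had a promoter peak, or 4.73%, and of the 7030 with any pooled summit in the window, 11.6%. Of 79 ribosomal protein genes 33 (41.8%) had one, and 4 of the 30 peaks involved (13.3%) had a WGATAR. Of these 30 peaks 23 lay in shared windows, where 16.3% of all summits had a site, and 3 of the 23 had one. Beside rpl-3 and rpl-20, rpl-35 had a signal of 143.4, with 48.83 in replicate 1 and 92.05 in replicate 2. Translation factors had 7 of 37 (18.9%), none of whose 7 peaks had a site, with iff-2 highest, at 55.43 in replicate 1 and 47.25 in replicate 2. Histone genes had 9 of 68 (13.2%), at 5 peaks of which 3 had a site. Of 19 heat shock protein genes 4 had a peak, hsp-90 highest at 64.35.

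Epidermal marker and hedgehog-related genes are shown against the 37.9% of all 1-gene summits that had a site. The lists were chosen with earlier results of these data known, so their shares are not independent of the peaks. The 12 epidermal markers included 7 with a peak (58.3%, 27.7 to 84.8), and 5 of their 8 peaks, all in 1-gene windows, had a site. grd-10, a hedgehog-related gene counted in both lists, had a signal of 98.59, with 41.06 in replicate 1 and 61.62 in replicate 2. ifb-1, an intermediate filament gene, had 96.02. nhr-23, a nuclear receptor needed for moulting, had a peak of 87.79 with no site and another of 51.63 with a site. noah-1, which encodes an apical matrix protein, had 74.44. Of 49 hedgehog-related genes 5 (10.2%) had a peak, and 4 of these 5 had a site, with grd-13 at 86.89, grd-3 at 85.18 and grd-5 at 72.07. The summits of grd-13, grd-3 and grd-10 are neighbours on chrIV, at 3438191, 3439517 and 3441052, so these peaks are not independent. The wrt-10 peak, which had no site, lay in a shared window. Both runs below lie close upstream of a start and were picked after their values were seen.
grd-13, chrIV:3438141-3438241, + strand: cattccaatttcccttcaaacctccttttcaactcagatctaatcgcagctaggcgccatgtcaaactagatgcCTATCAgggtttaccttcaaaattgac
grd-5, chrV:8618864-8618964, + strand: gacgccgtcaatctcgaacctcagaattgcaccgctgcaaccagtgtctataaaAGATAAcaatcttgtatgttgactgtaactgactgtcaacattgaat

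Nuclear hormone receptor genes, a large family of ligand-regulated factors in worms, had 29 of 246 with a peak (11.8%), and 13 of 29 peaks had a site. The shared peak of nhr-94 and nhr-152 had 148.9, nhr-168 had 141.1 without a site, and nhr-155 had 121.5 with a TGATAA. Collagen genes of the col class had 8 of 129 (6.20%), near the share over all genes, with col-107 highest at 73.85. Of 16 germline markers 5 (31.3%) had a peak, with mex-5 and rec-8 sharing 1 at 64.83, and 1 of the list's 5 peaks had a site. The body wall muscle list had 1 of 10. The 9 intestinal and 15 neuronal markers had 0, which allows up to 33.6% and 21.8%. Chemoreceptors had 3 of 1260 (0.238%), C-type lectins 1 of 237 and F-box genes 1 of 305. Groups are compared by counts alone, with no test of any list.

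**Figure D5:**
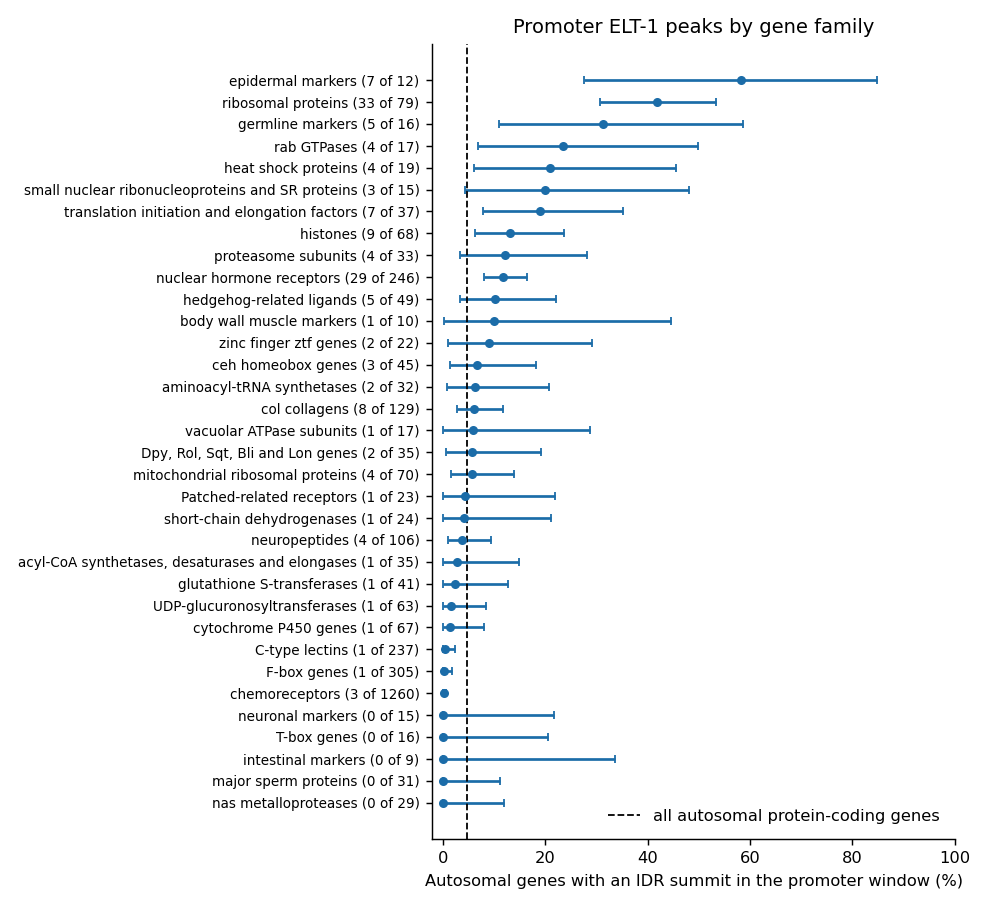
Share of each gene family's autosomal members with a promoter IDR summit (%), with 95% Clopper-Pearson intervals and counts in the labels. The dashed line is the share over all autosomal protein-coding genes, 4.73%. Epidermal markers (58.3%) and ribosomal proteins (41.8%) lie farthest to the right. The lists were chosen with earlier results of these data known.

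A small group of summits lay by short RNA genes. Within 200 bp of one lay 16 of the 646 (2.48%), 10 of them by a snoRNA, 5 by an snRNA and 1 by a tRNA gene. A site was found at 1 of the 16, against 204 of the 630 others (32.4%). The share of remaining regions this close to such genes was not counted, so 2.48% cannot be called high or low. Peaks lay close to the window's edges on both sides. Just inside the upstream edge were pie-1, at -992 bp from its start with a signal of 63.06, and gpb-1, also at -992 bp with 28.4. Just outside were col-65, at -1001 bp with 36.98, and bud-31, at -1004 bp with 31.84. Downstream, R02D5.9 and nhr-179 were inside at 185 bp, with 30.56 and 57.99, and T09B4.5 and Y42G9A.3 outside at 207 and 222 bp, with 64.48 and 29.48. Of these edge peaks, the outside ones of col-65 (AGATAA) and T09B4.5 (TGATAA) had a site, and the others had none.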

How the data were processed

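The deposited ce11 peak lists of 2 biological replicates were used: a thresholded IDR list, a pooled list and a list per replicate. Peak signal values, −log10 q values and summit offsets (the position of the summit counted from the peak start) are the authors' own, per the deposited files. The −log10 q value was not used to rank peaks. For the aligner, the peak caller and the cut-off of the IDR, the choice is not given in the sources used here. Read depth is unknown. A control entered the authors' calls and was not analysed here. The size range of 150 to 350 bp is per the labels.

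Summits were placed against Ensembl release 115 protein-coding transcript starts and read from the WBcel235 sequence with Python 3.11.15, numpy 2.4.6, pandas 2.3.3, scipy 1.17.1 and matplotlib 3.10.9. Sequences were searched on both strands within 50 bp of the summit. Differences in shares were tested with Fisher's exact test (2-sided), adjusted by Benjamini-Hochberg over 13 planned contrasts and over 22 motif tests, with a threshold of 0.05. Intervals cover counting error only and treat peaks as independent. The members, gene lists and tests were chosen with earlier results of these data known. Of the tests added after seeing the data, the first 8 and the later 2 were adjusted separately. The split was made after it was seen that adjusting all 10 together brought 1 of the first 8, 1-gene against distal intergenic peaks, from an adjusted exact p of 0.052 to 0.039; it changed no other call. Named genes were those at the 10 strongest 1-gene and 5 strongest shared peaks, the 3 genes with most peaks, up to 3 per family and those at the window's edges. Genes named beyond these (pmt-1, noah-1, grd-5 and nhr-155, among others) and the display sequences so marked were chosen after their values were seen. Alternatives changed the window, starts, threshold, site definition, comparison regions, matching and replicates, 16 in all. Those without a replicate put the 1910 strongest regions of the other replicate in place of the IDR list. The remaining regions were still drawn from the pooled list of both replicates. The code was checked on simulated data.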

Additional observations from a re-analysis of the deposited data

How the results depend on the processing

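Odds ratios are given throughout, except for orientation, where the ratio is of sites on the gene's strand to sites on the other strand. Of the planned contrasts, 138 results under the alternatives kept their direction and call, and 9 reversed; none of the reversed ones was called in the main analysis. Replacing the IDR list by the strongest regions of 1 replicate gave ranges of 0.712 to 0.778 for promoter against distal GATA shares, 0.797 to 0.805 against intronic, 0.742 to 1.06 for near against far and 1.00 (0.9998) to 1.09 for the near-start share. The intronic difference lost its call with a window of 2000 bp upstream (0.901), the list cut to its stronger 0.5 (0.780), a site within 25 bp (0.681) and AGATAA alone (0.685). Near against far reversed with the 500-bp window (1.13), the stronger 0.5 of the list (1.01) and AGATAA (1.02). The near-start share was called with the 2000-bp window (1.35) and with 1 start per gene (1.23), and reversed in the stronger 0.5 of the list (0.892) and against the next-strongest regions (0.882), where the shared-window (1.24) and middle-third (1.08) calls were lost and 1 motif test passed. With the 500-bp window the middle-third call was lost (1.23), and high-signal shares were called lower than distal (0.750) and intronic (0.708); with 1 start per gene the intronic one was called (0.676), and in the stronger 0.5 of the list both reversed (1.06 and 1.05). The both-replicate share was called lower than distal with the 2000-bp window (0.728). The orientation ratio was not called in the stronger 0.5 of the list (0.625) or for AGATAA (0.733). Shared peaks numbered 120, 296 and 77 with the 500-bp window, the 2000-bp window and the stronger 0.5 of the list, which held 308 peaks and 381 genes. The cause of these changes was not tested, beyond fewer peaks in the stronger 0.5 of the list.

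Alternatives for motifs were limited, after the first results were seen, to the motifs with a call. Among these, reversals were 0.955 for GAGAGA and 0.909 for GCGTCTC against the next-strongest regions, and, against distal peaks, TTTCAG 1.04 (1 start per gene), 1.31 (100 bp), with 0.776 to 1.07 without a replicate, TATAAA 1.20 (100 bp), with 0.908 to 1.47 without a replicate, GCGTCTC 0.832 and TTGCGCAA 0.761. The TTGCGCAA call was also lost in the stronger 0.5 of the list (2.72), within 25 bp (2.12) or 100 bp (2.74) and against the next-strongest regions (1.66). GCGTCTC without against with a WGATAR lost its call with the 500-bp window (1.94), 1 start per gene (2.04), the stronger 0.5 of the list (1.70), sites within 25 bp (1.21) and AGATAA alone (1.54). Among added tests, the shared-window GATA share against the remaining regions lay at 1.22, 1.36, 1.14, 1.73, 1.91 and 1.02, and at 1.11 to 1.22 without a replicate, with no call. GAGAGA without against with a site lay at 1.14, 1.05 and 1.07, and 1-gene against shared windows at 0.854 for GAGAGA and 0.741, 0.878 and 0.961 for GCGTCTC. The strand comparison reversed at 1.09 and 1.49, and the upstream share at 0.998. 1-gene against distal was called with the 500-bp window (0.633, adjusted exact p = 0.00414) and 1 start per gene (0.686, adjusted exact p = 0.0357), and under the other alternatives it was not called. No paired comparison between samples of different groups was possible because the series has 1 group. Depth is unknown, so weak sites cannot be bounded.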

Other observations

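Which short words distinguished the promoter summits was also described without fixing motifs in advance. Of 2080 words of 6 bases (either strand counted together), 213 were present at 8% or more of promoter summits. Ranked by their share over that of the remaining promoter regions, the first 3 were rich in G and C. The ranking was not adjusted for GC content, whose median was 44.55% at promoter summits and 36.63% at the remaining regions. ACACGC was at 8.98% of promoter summits against 2.54% of the remaining regions, AGTGCG at 9.91% against 2.88%, and AGCGCG at 9.44% against 2.92%. GACGCA, rank 4, was at 15.9% of promoter summits, 19.5% of those without a WGATAR against 4.998% of the remaining regions. Against the next-strongest remaining regions GACGCA was 15.9% to 14.7%. The first 3 words were at 5.06% (ACACGC), 6.74% (AGTGCG) and 5.62% (AGCGCG) of those next-strongest regions. AGATAA ranked 23 by this measure, with 17.2% of promoter summits, 8.85% of the next-strongest regions and 7.03% of all remaining regions. Words that overlap it ranked higher. GATAAC, rank 18, was at 9.13% of promoter summits against 3.52% of the remaining regions, and GAGATA, rank 22, at 12.2% against 4.85%. GCGAGA was at 20.7% of shared summits and 8.66% of 1-gene summits. No test was made of words chosen from these data.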
